A study of Mus musculus with 2 samples.

Results

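Sodium and calcium pump genes were compared between cortical fiber cells and epithelial cells of the mouse eye lens. The 7 genes on the list were Atp1b1, Atp1b2 and Atp1b3 (beta subunits of the Na,K-ATPase), Atp2a2 and Atp2a3 (SERCA pumps) and Atp2b1 and Atp2b2 (plasma membrane calcium pumps). They were chosen by symbol, with earlier results of these data known. A gene was measured if a probe carried its symbol alone in the platform annotation. By this rule 5 of the 7 genes were measured, with 1 probe each, out of 13709 genes in all. No probe was named for Atp2a2 or Atp2b1, so neither was analysed here.

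The lens keeps its transparency and volume partly through active ion transport. The Na,K-ATPase, made of a catalytic alpha subunit and a beta subunit needed for its assembly and delivery to the membrane, exports sodium and imports potassium, often with a small FXYD protein bound to it. In the lens its activity is known to be concentrated in the epithelium and outer fibers. SERCA pumps load calcium into the endoplasmic reticulum, and plasma membrane calcium pumps export it from the cell, aided by sodium-calcium exchangers that use the sodium gradient.

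The study held 2 samples, the cortex (cortical fiber cells) and the epithelium (the lens capsule with its adhering epithelial cells). Both came from lenses of 13-day-old mice, 5 mice in all, dissected with forceps. No genotype, strain or treatment is named, and the sources used here do not say whether the mice were pooled. Poly(A) RNA from each sample was hybridized to 1 CodeLink mouse array in 1 colour. There was therefore no replicate and no test between the samples, and every difference below is 1 array against 1 array. Fewer cells of a type and less RNA per cell cannot be told apart in such bulk samples.

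Values are deposited intensities, whose median was 0.998 on each array. Values below a floor of 0.499 (0.5 of the median) were raised to it before differences were taken. This floor was set for the comparison and does not mark what the platform can detect. A gene was counted as higher in a sample if its intensity there was 3-fold or more that of the other and no lower than the array's median. In 558 genes measured by at least 2 probes in both samples, log2 differences of probes to 1 gene had a pooled SD of 1.10, and this technical spread is the only error the table gives.

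The labelled cell types were set beside their markers. The marker lists were chosen with earlier results of these data known, so this is not an independent check. Of 14 measured fiber markers, 12 passed 3-fold towards cortex (9.41% of all genes did). Of 12 epithelial markers, 9 passed it towards epithelium (8.17% did). All 14 fiber markers were also above the floor in epithelium, with a summed intensity of 21004 in cortex and 3689 in epithelium. Cryba1 alone stood at 4892 in cortex and 1016 in epithelium. The part of fiber cells in the epithelium values was not tested. Sfrp1, an epithelial marker, was brighter in cortex on both probes, under 3-fold (329 in cortex and 224 in epithelium for the brighter). The free-text descriptions of both samples mention fetal liver, while titles, source names and design name the lens. Of 7 measured erythroid and liver markers, 5 were above the floor in cortex and 4 in epithelium, with a summed intensity of 6.81 in cortex and 6.90 in epithelium. Epb42 (a red cell membrane protein) passed 3-fold towards cortex, at 2.09 in cortex and 0.678 in epithelium. Hba-a1 (alpha globin) stood at 1.39 in cortex and 1.79 in epithelium, Trf (transferrin) at 1.16 in cortex and 2.26 in epithelium, and Afp at 0.660 in cortex and 0.680 in epithelium. Apoa1 and Ttr were below the floor in both samples, and Fgb reached 0.506 in cortex alone.

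Atp1b3 and Atp1b1, both beta subunit genes of the Na,K-ATPase, were lower in cortex than in epithelium. The other 3 measured genes, Atp1b2, Atp2a3 and Atp2b2, lay below the floor in both samples. The count was thus 2 of 5 at least 3-fold higher in epithelium, where 8.17% of all 13709 genes met the rule, and 0 of 5 in cortex, where 9.41% of all genes did. With limits of 2-fold and 5-fold the counts were also 2 of 5 in epithelium, against 15.3% and 3.48% of all genes, and 0 of 5 in cortex, against 16.4% and 5.09%. Of the 8351 genes above the floor in both samples, 10.2% passed the rule towards epithelium, and both pump genes above the floor were among them. The median log2 difference was 0.00 over the 5 genes and 0.00 over all genes, since 3 of the 5 were at the floor. With 5 measured genes, the counts describe these genes and not the pump families. The genes were chosen with earlier results of these data known, so their counts against the shares of all genes are not an independent comparison.

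**Figure D1:**
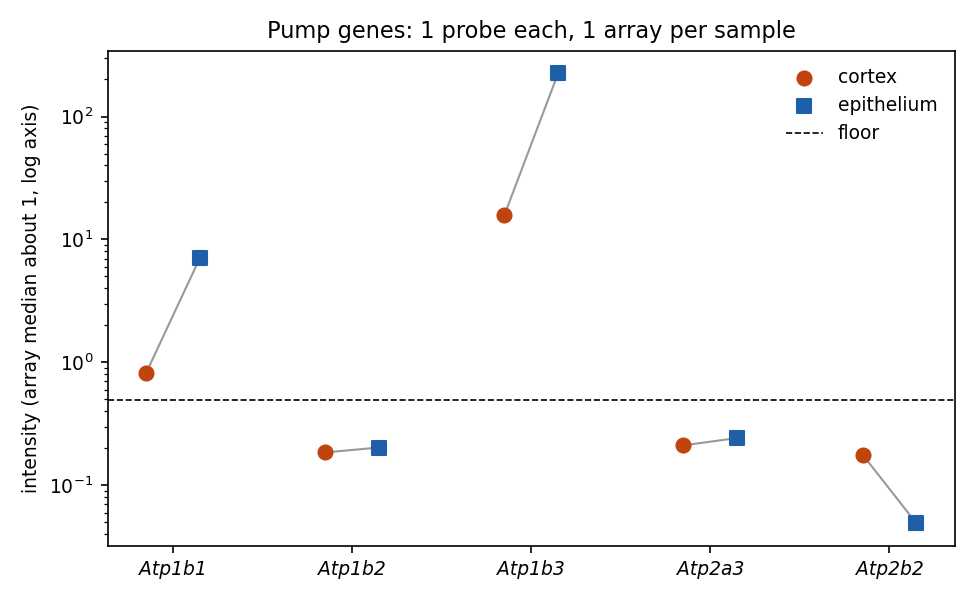
Intensity of each of the 5 measured pump genes on the cortex array (circles, left) and the epithelium array (squares, right), on a log axis, with the floor as a dashed line. Each symbol is 1 probe on 1 array, with no replicate and no error bar. Atp1b3 (15.8 in cortex, 225 in epithelium) and Atp1b1 (0.826 in cortex, 7.10 in epithelium) lie above the floor, and the other 3 genes lie below it in both samples.

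Atp1b3, which encodes the beta 3 subunit, had an intensity of 15.8 in cortex, against 225 in epithelium. The log2 difference was -3.83 ± 1.10 (pooled SD between probes, 1 array per sample), a 14.2-fold lower intensity in cortex. Both values lay far above the floor, so the size of the fold did not depend on it. The probe ranked at percentile 88.0 of all probes on the cortex array and at percentile 99.6 on the epithelium array, so its rank was also lower in cortex. Among these 8351 genes, 57 (0.683%) differed further towards epithelium.

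Atp1b1 encodes the beta 1 subunit, the form found most widely across tissues. It had an intensity of 0.826 in cortex, against 7.10 in epithelium. The log2 difference was -3.10 ± 1.10 (pooled SD between probes), an 8.60-fold lower intensity in cortex. The cortex value lay between the floor and the array median, and with the floor set at the median the difference became a bound of at least 7.12-fold. The probe ranked at percentile 46.4 on the cortex array, near the middle of all probes, and at percentile 80.7 on the epithelium array. Of the 8351 genes, 126 (1.51%) differed further towards epithelium.

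The differences of Atp1b3 and Atp1b1 were alike within the spread between probes, 0.73 apart on the log2 scale against a pooled SD of 1.10. Levels of these genes were not set against each other, because probes of different genes bind with different strength. By closeness of both log2 values over the 2 samples, the genes most like Atp1b3 were Ldha, Tsc22d1 and Ctsl. This measure takes in the brightness of the probes as well as expression, so it only lists genes with similar readings. Ldha (lactate dehydrogenase A) stood at 20.5 in cortex and 265 in epithelium. Tsc22d1 (a transcriptional regulator) stood at 21.2 in cortex and 262 in epithelium. Ctsl (the lysosomal protease cathepsin L) stood at 22.8 in cortex and 268 in epithelium.

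Some markers of neighbouring tissue were also higher in epithelium. The ciliary epithelium beside the lens is itself rich in Na,K-ATPase. Of 12 measured ciliary body and iris markers, 1 passed 3-fold towards cortex and 5 towards epithelium (8.17% of all genes did), and 6 did not pass. Dct, a pigment cell enzyme, was the gene that passed towards cortex (1.97 in cortex, 0.210 in epithelium), and Zic2 stood at 18.7 in cortex and 20.9 in epithelium. Their summed intensity, with values under the floor raised to it, was 33.6 in cortex and 170 in epithelium, and Ptgds alone stood at 7.54 in cortex and 123 in epithelium. Of the list, Zic1, Otx2 and Tyr were below the floor on both arrays. Of 8 vascular markers 0 passed towards cortex (9.41% of all genes did) or towards epithelium (8.17% did). Their summed intensity was 4.80 in cortex and 6.46 in epithelium, with Pecam1, Cdh5, Kdr and Emcn below the floor on both arrays. Tek was brighter in epithelium, under 3-fold (0.928 in cortex, 2.40 in epithelium). Esam stood at 0.598 in cortex and 0.657 in epithelium. Tie1 was above the floor in epithelium alone and Cldn5 in cortex alone. The part of these tissues in the beta subunit values was not tested.

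The promoters of both beta subunit genes are shown because these genes were lower in cortex together. Each sequence holds the 250 bases before the outermost annotated start, 5′ to 3′ on the gene's strand, from RefSeq on build GRCm38.p6. The Atp1b1 window is chr1:164458356-164458605 and the Atp1b3 window chr9:96364432-96364681, both on the minus strand. Capitals mark matches, on either strand, to 4 motifs: the GC box GGGCGG, the CCAAT box CCAAT, the TATA box TATANA and the E-box CACGTG.
Atp1b1: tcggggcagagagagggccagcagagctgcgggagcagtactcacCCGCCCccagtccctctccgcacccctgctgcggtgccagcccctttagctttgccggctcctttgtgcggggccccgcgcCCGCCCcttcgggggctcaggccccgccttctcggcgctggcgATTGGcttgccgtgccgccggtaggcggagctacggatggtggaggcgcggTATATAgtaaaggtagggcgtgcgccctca
Atp1b3: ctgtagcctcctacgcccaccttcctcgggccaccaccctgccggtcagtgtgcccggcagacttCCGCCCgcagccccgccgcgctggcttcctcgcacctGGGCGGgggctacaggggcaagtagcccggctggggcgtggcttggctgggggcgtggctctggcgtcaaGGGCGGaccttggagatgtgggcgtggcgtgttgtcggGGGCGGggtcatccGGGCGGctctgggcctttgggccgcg
The Atp1b1 window held 2 GC boxes, 1 CCAAT box and 1 TATA box, whose first base lay 30 bases before the start. The Atp1b3 window held 5 GC boxes and none of the other motifs. Matches did not overlap within either window. Of the 32851 promoter windows in the table, 32.7% held a GC box, 33.8% a CCAAT box, 22.6% a TATA box and 6.02% an E-box. The GC content was 70.4% for Atp1b1 and 73.6% for Atp1b3, against a median of 52.4% over all windows. RefSeq lists a further start for Atp1b3, whose window had 1 E-box and no other match. The GC box was thus the only motif of the 4 found in both outermost windows, and a match is not evidence of a bound site.

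The third beta subunit gene, Atp1b2, which encodes a form known from the brain as an adhesion molecule on glia, stood at 0.185 in cortex and 0.203 in epithelium. Atp2a3, the SERCA3 pump gene, stood at 0.212 in cortex and 0.243 in epithelium. Atp2b2, the plasma membrane calcium pump gene known for its role in inner ear hair cells, stood at 0.178 in cortex and 0.0493 in epithelium. All 6 values lay below the floor of 0.499, as did both values of 24.5% of all genes, so no difference can be given for these genes. Of the 4 calcium pump genes on the list, the 2 with a probe were thus below the floor in both samples.

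Other Na,K-ATPase subunit genes and FXYD genes were examined in 1 list with H,K-ATPase genes. This mixed list held 15 further genes, of which 9 were measured. None of the 4 alpha subunit genes had a probe under its symbol alone, so the catalytic subunit was not analysed here. Of the 9 genes, 1 passed 3-fold towards cortex (9.41% of all genes did) and 0 towards epithelium (8.17% did). Their median log2 difference was 0.21, against 0.00 over all genes. The 1 gene was Fxyd2, which encodes the gamma subunit, a modulator of the pump best known from the kidney. Its brightest probe stood at 1198 in cortex, against 19.3 in epithelium, a 62.0-fold higher intensity in cortex. The other Fxyd2 probe stood at 1.62 in cortex and 1.66 in epithelium. The log2 difference was -0.03 for this probe and 5.95 for the first. The probes differed by far more than the pooled SD of 1.10, and the first is annotated to a non-coding RefSeq transcript of the gene, so the direction for Fxyd2 rests on 1 probe.

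The remaining genes of this mixed list did not pass 3-fold. Fxyd1 (phospholemman, an inhibitor of the pump in heart and muscle) stood at 46.7 in cortex and 21.3 in epithelium, or 2.19-fold brighter in cortex. Fxyd4 stood at 3.30 in cortex and 2.85 in epithelium. Atp4b, the beta subunit gene of the gastric H,K-ATPase, stood at 5.04 in cortex and 2.57 in epithelium. These 3 genes were above the floor in both samples, and their log2 differences of 1.13, 0.21 and 0.97 lay near or within the pooled SD between probes (1.10). When centred on ribosomal protein genes they were 0.21 for Fxyd1, -0.72 for Fxyd4 and 0.045 for Atp4b, so no direction can be given. Atp1b4 (0.794 in cortex, 0.162 in epithelium) and Fxyd6 (0.434 in cortex, 0.840 in epithelium) were each above the floor on 1 array alone, with bounds under 3-fold. Fxyd3, Fxyd5 and the H,K-ATPase gene Atp12a were below it on both arrays.

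**Figure D2:**
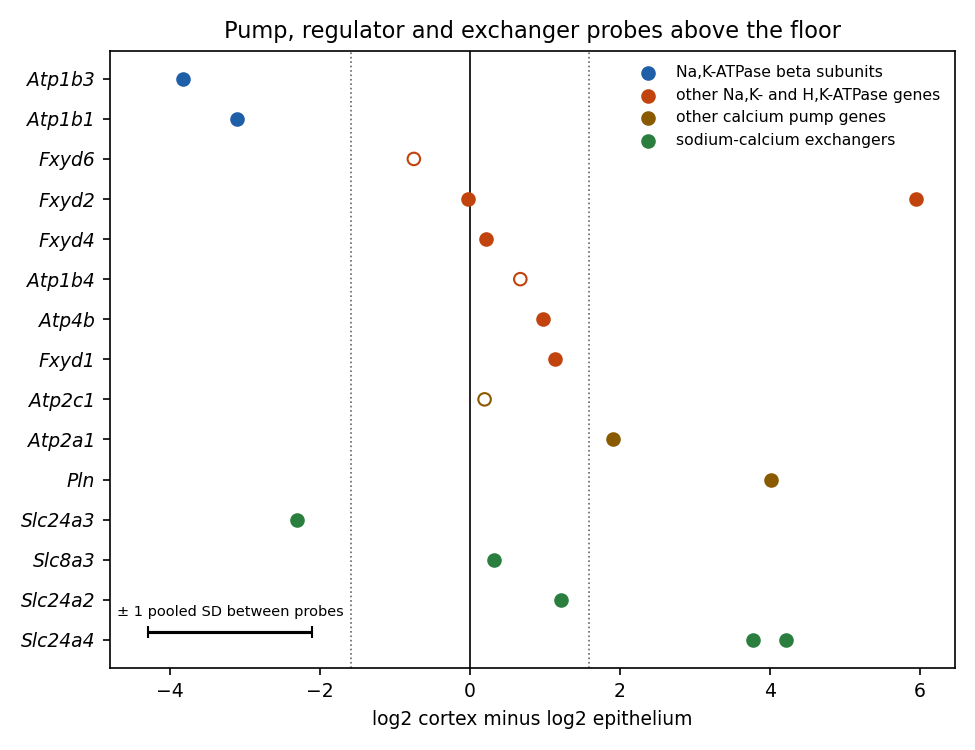
Log2 cortex minus log2 epithelium for each probe that exceeded the floor in either sample, by gene and list, with values above 0 brighter in cortex. Open circles are bounds, dotted lines mark 3-fold, and the bar shows 1 pooled SD between probes (1.10) on either side. Atp1b3 (-3.83) and Atp1b1 (-3.10) lie on the epithelium side, Pln (4.01) and both Slc24a4 probes (3.77 and 4.22) on the cortex side, and the Fxyd2 probes lie apart at -0.03 and 5.95.

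Of 7 further calcium pump genes and SERCA regulators, 4 were measured, and 2 of these passed 3-fold towards cortex and 0 towards epithelium. Their median log2 difference was 1.05. Of all genes, 9.41% passed 3-fold towards cortex and 8.17% towards epithelium. Pln encodes phospholamban, which inhibits SERCA2 in heart muscle. It stood at 25.5 in cortex, against 1.58 in epithelium, a 16.2-fold higher intensity in cortex. Atp2a1, the SERCA1 gene of fast skeletal muscle, stood at 2.75 in cortex and 0.731 in epithelium, or 3.76-fold brighter in cortex. Atp2a1 fell short of 3-fold when the floor was set at the median, where its bound was 2.76-fold, and after centring on ribosomal protein genes (log2 difference 0.99). Atp2c1, a calcium and manganese pump gene of the Golgi, stood at 0.570 in cortex and 0.266 in epithelium, and Sln (sarcolipin) was below the floor in both.

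Some muscle markers were also higher in cortex. Of 11 measured, 2 passed 3-fold towards cortex (9.41% of all genes did) and 0 towards epithelium, and 9 did not pass. Acta1 (skeletal muscle actin) stood at 17.1 in cortex and 0.741 in epithelium, and Myh3 (embryonic myosin) at 2.94 in cortex and 0.373 in epithelium. Mylpf, a fast muscle myosin light chain, was dimmer in cortex (0.688) than in epithelium (1.59), under 3-fold. The summed intensity of the 11 was 30.6 in cortex and 10.4 in epithelium, while Myh2, Myl1, Des and Tnnc2 were below the floor on both arrays. Their part in the Pln and Atp2a1 values was not tested.

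Sodium-calcium exchangers, the other route of calcium export, held 1 called gene in each direction, too few to describe the family. Of 7 measured, 1 passed 3-fold towards cortex (9.41% of all genes did) and 1 towards epithelium (8.17% did). The median log2 difference was 0.00. Slc24a4, a potassium-dependent exchanger gene, had 2 probes that agreed within the spread between probes. The brighter stood at 15.1 in cortex, against 1.10 in epithelium, a 13.7-fold higher intensity in cortex. The dimmer stood at 12.7 in cortex, against 0.684 in epithelium, an 18.6-fold difference. Slc24a3, another gene of that family, went the other way, at 1.07 in cortex and 5.31 in epithelium, or 4.95-fold lower in cortex. Slc24a2 stood at 2.71 in cortex and 1.17 in epithelium, under 3-fold. The Slc8 genes, which encode exchangers that do not need potassium, were dim. Slc8a1 was below the floor on both arrays, and the brighter Slc8a3 probe stood at 0.972 in cortex and 0.781 in epithelium. Slc8b1 and Slc24a1 were below the floor as well.

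**Figure D3:**
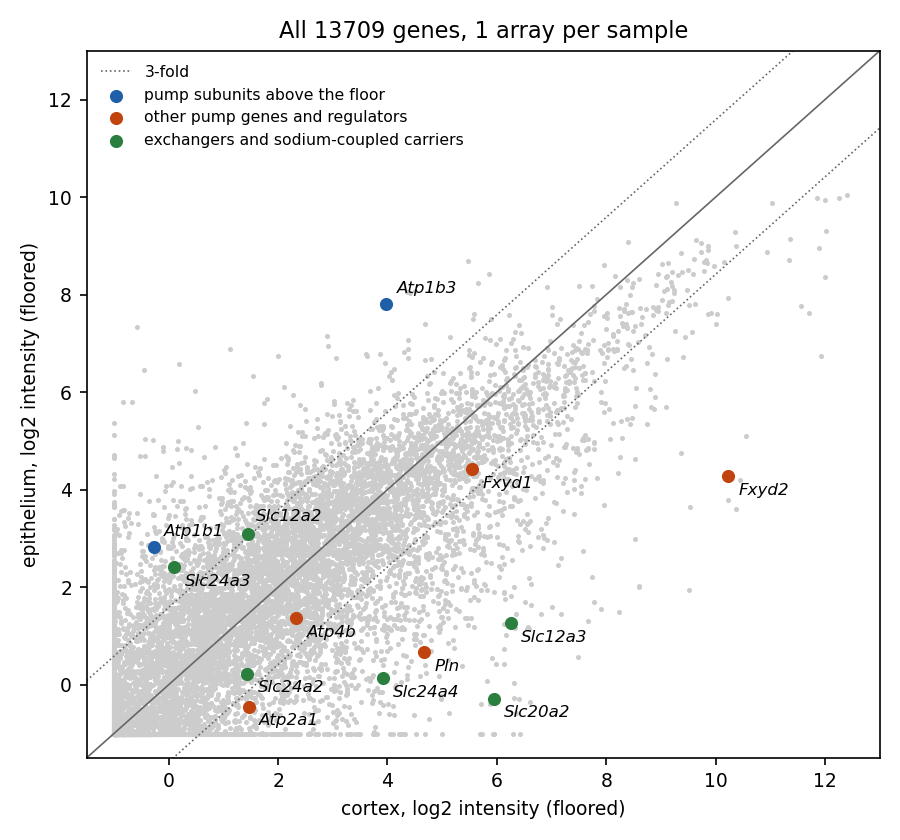
Log2 intensity in cortex (horizontal) and epithelium (vertical) for all 13709 genes (grey), after raising values to the floor, with pump genes, their regulators and sodium carriers in colour. The solid line marks equal intensity and the dotted lines 3-fold, with no replicate behind any point. Atp1b3 and Atp1b1 lie above the upper dotted line (higher in epithelium), and Fxyd2, Pln, Slc24a4, Slc12a3 and Slc20a2 lie below the lower one (higher in cortex).

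Carriers that use the sodium gradient built by the pump were listed with epithelial sodium channel genes and an exchanger scaffold gene. Genes of this mixed list were called in both directions. Of 10 measured, 4 passed 3-fold towards cortex (9.41% of all genes did) and 2 towards epithelium (8.17% did). The median log2 difference was 0.04. The balance turned to 3 towards cortex and 4 towards epithelium when centred on ribosomal protein genes, and under loess it was 4 and 1. Slc20a2, a sodium-phosphate carrier gene, stood at 61.4 in cortex, against 0.821 in epithelium, a 74.8-fold higher intensity in cortex, or at least 61.6-fold with a floor at the median. Slc12a3, the thiazide-sensitive sodium-chloride carrier gene of the kidney, stood at 76.2 in cortex, against 2.39 in epithelium, a 31.9-fold difference. Each of these was measured by 1 probe. The epithelial sodium channel genes Scnn1b (4.57 in cortex, 0.150 in epithelium, at least 9.17-fold) and Scnn1a (3.49 in cortex, 1.07 in epithelium, 3.26-fold) were also higher in cortex, though Scnn1a was under 3-fold after centring on ribosomal protein genes. Slc12a2 (NKCC1, the sodium-potassium-chloride carrier) was lower in cortex, at 2.72, against 8.54 in epithelium, a 3.14-fold difference that was under 3-fold after loess on brightness. The bound for Slc9a3r1, a scaffold protein of sodium-proton exchangers, was at least 4.73-fold higher in epithelium (0.455 in cortex, 2.36 in epithelium) and under 3-fold when the floor was set at the median.

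Calls among genes of calcium stores depended on the scaling. With the deposited scaling, 1 of 13 measured passed 3-fold towards cortex (9.41% of all genes did) and 0 towards epithelium (8.17% did). The median log2 difference was 0.00. The 1 gene was Itpr2, an inositol trisphosphate receptor that releases calcium from the endoplasmic reticulum. Its brightest probe stood at 6.79 in cortex and 1.58 in epithelium (4.29-fold), and another at 4.46 in cortex and 1.16 in epithelium (3.84-fold). The others were dim, at 0.960 in cortex and 0.564 in epithelium, and at 0.502 in cortex and 0.401 in epithelium. Canx (calnexin) was not called by its brighter probe (1.78 in cortex, 3.47 in epithelium). Its dimmer probe was 4.47-fold brighter in epithelium (0.656 in cortex, 2.93 in epithelium). Itpr2 was under 3-fold with the mean over its 4 probes and when centred on ribosomal protein genes. The count in epithelium depended on the scaling, with 3 genes under quantile normalization, 2 under loess on brightness and 4 once ribosomal protein genes were centred.

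Among 20 measured calmodulin and calcium-binding genes, 3 passed 3-fold towards cortex (9.41% of all genes did) and 1 towards epithelium (8.17% did). The median log2 difference was 0.00. The calmodulin genes, whose product activates the plasma membrane calcium pumps, stayed under 3-fold with the deposited scaling. Calm3 stood at 188 in cortex and 81.2 in epithelium, and Calm2 at 46.3 in cortex and 85.1 in epithelium. Their log2 differences of 1.21 and -0.88 lay near or within the pooled SD between probes (1.10), so no direction can be given. Centring on ribosomal protein genes took Calm2 past 3-fold towards epithelium. S100a4 (369 in cortex, 52.8 in epithelium, 6.99-fold), S100a6 (695 in cortex, 141 in epithelium, 4.95-fold) and Calml3 (6.20 in cortex, 1.26 in epithelium, 4.92-fold) were higher in cortex. S100a1, which is known to stimulate SERCA in heart muscle, was lower in cortex (2.64, against 10.4 in epithelium, 3.93-fold). S100a6 was under 3-fold in each of the 3 other scalings, and Calml3 when centred on ribosomal protein genes. The balance of the list depended on the scaling, with 2 genes towards cortex and 3 towards epithelium under quantile normalization, 2 and 1 under loess, and 1 and 4 when centred on ribosomal protein genes.

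The lower intensity of Atp1b3 and Atp1b1 in cortex held under each scaling and floor tried. The floors could not move Atp1b3, whose values lay above all of them. Only the floor at the array median could move Atp1b1. The log2 difference of Atp1b3 ran from -4.76 (centred on ribosomal protein genes) to -3.83, and that of Atp1b1 from -4.03 (the same centring) to -2.83 (floor at the array median). Centring on ribosomal protein genes gave genes measured in both samples a median of -0.89 instead of 0.03, and cortex took 17.4% of calls instead of 53.5%. By construction this centring lowered the difference of each gene above the floor on at least 1 array by 0.93, while genes at the floor on both stayed at 0.

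**Figure D4:**
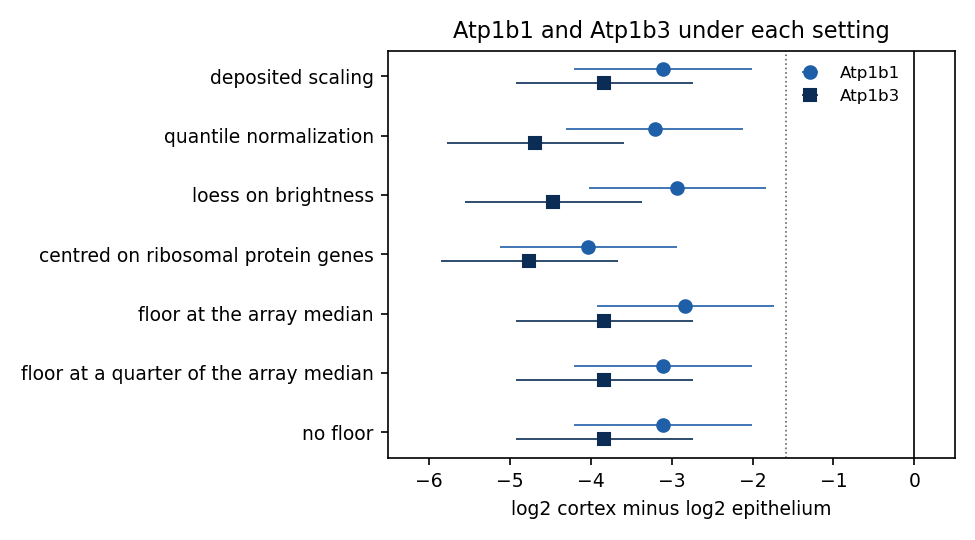
Log2 cortex minus log2 epithelium of Atp1b1 (circles) and Atp1b3 (squares) under the deposited scaling and 6 alternatives, with bars of 1 pooled SD between probes (1.10) on either side and a dotted line at 3-fold. Both genes lie on the epithelium side of the dotted line in each setting, between -4.76 and -2.83, and the Atp1b1 value with the floor at the array median is a bound. The floor settings could not move Atp1b3, and only the floor at the array median could move Atp1b1.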

How the data were processed

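Intensities deposited by the authors were used, 1 value per probe and array for 19819 probes. Per the labels' descriptions, images were analysed with the CodeLink software, while scaling and background correction are not described there. Values were missing for 87 probes in cortex and 97 in epithelium. The platform annotation gave 1 symbol to 15120 probes, several to 38 and none to 4661. Of the named probes, 15064 matched RefSeq by Entrez identifier, and no symbol changed.

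The deposited scaling was kept, values were floored, and log2 was taken. The probe with the highest mean log2 value stood for a gene. Where 1 of the 2 values was at the floor the difference is a bound, and where both were it was set to 0. Of the probes, 65.5% in cortex and 60.9% in epithelium lay above the floor, and the number of arrays limits the precision. The named genes are all measured pump genes, up to 6 genes past 3-fold in each further list, direct partners and paralogs, and the 3 nearest genes of the pump gene with the largest difference. Other genes named were chosen after their values were seen. The pump genes and lists were chosen with earlier results of these data known. The calling procedure was tested on simulated data. Alternatives were other scalings, floors, probe summaries and fold limits. Python 3.11.15, numpy 2.4.6, pandas 2.3.3 and statsmodels 0.14.6 were used.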

Additional observations from a re-analysis of the deposited data

How the results depend on the processing

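The alternatives that could move a measured pump gene were the scalings and, for some genes, the floors. Each gene has 1 probe, and genes at the floor on both arrays are set to 0 by construction. Atp1b3 could be moved by the scalings alone, and Atp1b1 also by the floor at the array median. Under the scalings and floors, Atp1b3 ran from -4.76 to -3.83 and Atp1b1 from -4.03 to -2.83. Each value lay within 1 pooled SD between probes of the reported one. Atp2b2 had a log2 difference of 1.85 without a floor, from values that lie below the floor on both arrays. The count of 2 genes higher in epithelium was the same at fold limits of 2 and 5, where 15.3% and 3.48% of all genes were called. The filter on dim genes changed no call, since 3-fold above the floor already exceeds the median. Of 16 further named genes past 3-fold, 8 kept the call in each alternative at the 3-fold limit and 10 in each of the 3 scalings. The other fold limits were not part of this count. At 5-fold, Slc24a3 (4.95-fold) and S100a1 (3.93-fold), which are among the 8, would not be called. Fxyd2 differed by -0.0331 with its more different probe left out. No paired analysis was possible because each group has 1 array. The number of arrays and the signal over the floor limit what can be said of Atp1b2, Atp2a3 and Atp2b2.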
